A study of Cucumis melo with 18 samples.

Results

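LEP (MELO3C005088.2), ERF039 (MELO3C013926.2) and CRF6 (MELO3C011671.2) are 3 of the 22394 genes counted in the flesh of melon fruits. All 3 carry the description “ethylene-responsive transcription factor”. They were selected on measured values, namely their fold changes in the comparisons in which the study listed differentially expressed transcription factors. These were “3_14” versus “1_14”, “4_14” versus “1_14” and “4_14” versus “4_6”, and the study's list gives LEP no value in the last. The values of LEP, ERF039 and CRF6 in these comparisons are therefore given as a description with no test. The same holds for “4_14” versus “3_14”, which follows from the first 2 of these comparisons. Tests were made in 5 other pairs of groups. Of these, “3_6” versus “1_6” shares no library with the comparisons used for the choice, and each of the others shares 1 group with them, so their tests are not independent of the choice.

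The ERF genes belong to the AP2/ERF family of plant transcription factors, whose shared domain binds DNA in the promoters of target genes. The family is named after factors that act late in the ethylene response, and ethylene is the hormone that drives ripening in climacteric fruits. Many members, however, respond to other hormones or to stress. In Arabidopsis, LEAFY PETIOLE (LEP) is known from plants with altered leaf petioles and from gibberellin responses. ERF039 belongs there to the DREB branch of the family, which includes regulators of cold and drought responses, and CRF6 is 1 of the cytokinin response factors and is linked to leaf senescence and oxidative stress. These roles come from Arabidopsis and were not measured in melon.

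RNA was sequenced from the inbred lines “B-14”, whose flesh turns orange, and “B-6”, whose flesh turns white, at 10, 30 and 45 days after pollination (DAP). The groups were “1_14”, “3_14” and “4_14” for “B-14”, and “1_6”, “3_6” and “4_6” for “B-6”, in each line at 10, 30 and 45 DAP, with 3 biological replicates per group and 18 libraries in all. The labels name no treatment, the plants grew in a greenhouse with 1 fruit per plant, and the lines differ across the whole genome. The labels name the tissue blade, the paper's methods name it fruit flesh, and neither was checked against marker genes, because the counts come with identifiers only. Total counts lay between 20651703 and 22675606 per library. Levels are given as CPM, a gene's count relative to the total count of its library in the usual per-million unit, after scaling of all 18 libraries by TMM factors. In libraries of bulk tissue, fewer cells that express a gene and less RNA per cell cannot be told apart.

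LEP was nearly undetected at 10 DAP in both lines and was present at 30 and 45 DAP. In “B-14” it had 4, 0 and 2 counts at 10 DAP, 170, 208 and 246 at 30 DAP, and 201, 201 and 214 at 45 DAP. In “B-6” it had 0, 1 and 2 counts at 10 DAP, 221, 228 and 288 at 30 DAP, and 53, 23 and 43 at 45 DAP. The 2 lines thus overlapped at 10 and 30 DAP, and at 45 DAP every “4_14” library was above every “4_6” library. As levels, these were 0.0919 ± 0.0915, 9.17 ± 1.85 and 8.97 ± 0.774 CPM in “1_14”, “3_14” and “4_14”, and 0.0528 ± 0.0532, 11.5 ± 1.28 and 1.79 ± 0.723 CPM in “1_6”, “3_6” and “4_6” (SD, n = 3 each). The order of the means was “3_6”, “3_14”, “4_14”, “4_6”, “1_14” and “1_6”. The highest 3 groups overlapped with their neighbours in this order, as did both groups of 10 DAP, whereas “4_6” lay apart from both of its neighbours.

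**Figure D1:**
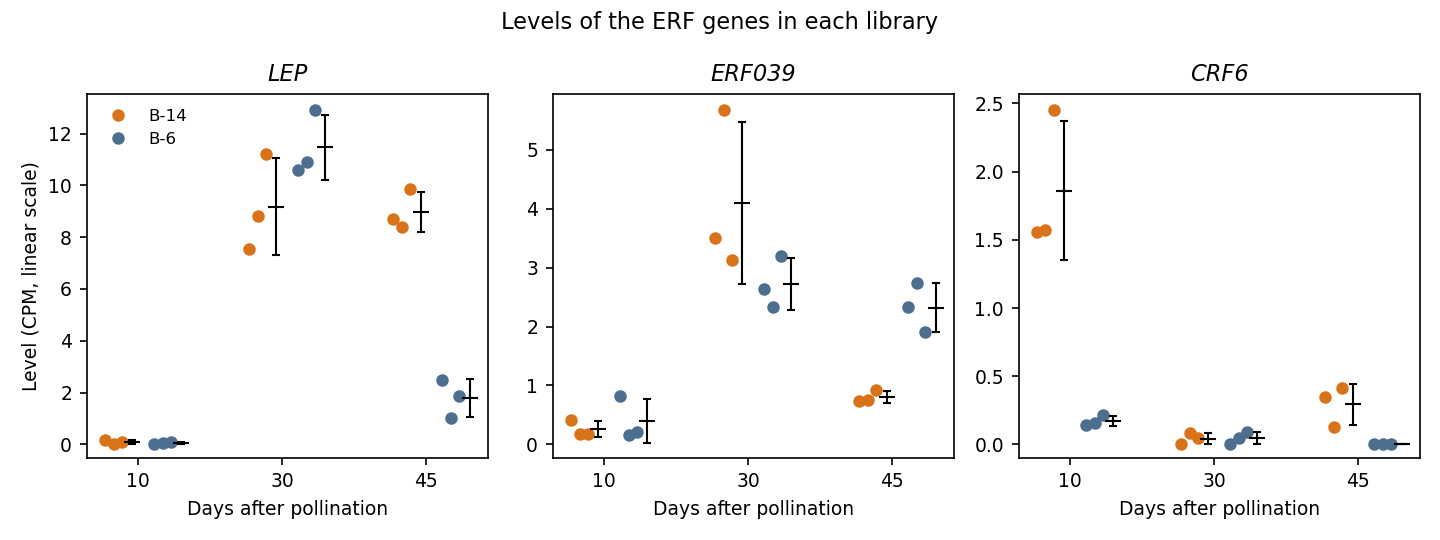
Level of LEP, ERF039 and CRF6 (CPM, linear axis of its own for each gene) against days after pollination, with 1 point per library and “B-14” in orange left of “B-6” in blue. Black bars are the mean and SD of 3 libraries. At 45 DAP, LEP lies at 8.38 to 9.85 CPM in “B-14” and 1.03 to 2.47 CPM in “B-6”, while ERF039 lies at 0.735 to 0.92 and 1.9 to 2.73 CPM, and CRF6 is highest in “B-14” at 10 DAP.

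In “B-6”, LEP rose between 10 and 30 DAP and fell between 30 and 45 DAP. A gene was called where edgeR's quasi-likelihood test gave an unadjusted p-value no higher than 0.05 and the level differed 2-fold or more either way, which is the threshold of the study's methods. With 737 counts over the “3_6” libraries and 3 over the “1_6” libraries, the ratio was 225 (95% exact interval 76.6 to 1090, which covers counting error only). The adjusted p-value was 1.4e-06 (Benjamini-Hochberg over the 16478 genes tested). In this comparison, 17.6% of all genes tested were called higher and 25.1% lower, so a call by itself was common. The fitted log2 fold change was 7.64 and, without replicate 3 of “1_6”, which held 2 of the 3 counts of its group, it was 8.52. In “4_6” versus “1_6”, with 119 and 3 counts, the ratio was 34.8 (95% exact interval 11.6 to 171) and the edgeR adjusted p-value 0.00037. Its fitted log2 fold change of 4.94 was 5.82 without that same library, and LEP was called in both cases. There 19.7% of all genes were called higher and 28.4% lower. Against “1_6”, with its 3 counts, LEP passed the count filter only through the later group, in which it was high. The p-values against “1_6” are to be read with this limit. The log2 fold change in “4_6” versus “3_6” was -2.68 (standard error 0.29, edgeR adjusted p = 0.00033), a level 6.40-fold lower in “4_6”. In that comparison 12.4% of genes were called higher and 15.4% lower. This sequence of calls, higher at 30 than at 10 DAP, higher at 45 than at 10 DAP and lower at 45 than at 30 DAP, was found for 143 of the 15092 genes tested in all 3 comparisons, or 0.948%.

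In “B-14”, LEP was also higher after 10 DAP, and the libraries of 30 and 45 DAP overlapped. Its log2 fold change was 6.57 (standard error 0.55) in “3_14” versus “1_14” and 6.53 (standard error 0.52) in “4_14” versus “1_14”, where “1_14” held 6 counts in all. Without replicate 1 of “1_14”, which held 4 of them, these values were 7.49 and 7.43. In “4_14” versus “3_14” it was -0.04 (standard error 0.17, 95% interval -0.44 to 0.35). At 45 DAP, LEP was 5.03-fold higher in “4_14” than in “4_6” (log2 fold change 2.33, standard error 0.31). The study's list of transcription factors gives no fold change for LEP in this comparison, unlike the value found here. The change from 30 to 45 DAP in “B-14” minus that in “B-6” was 2.66 on the log2 scale (standard error 0.45), and this difference was not tested because it contains a comparison used for the choice. At 30 DAP, the log2 fold change in “3_14” versus “3_6” was -0.31 (standard error 0.17, 95% interval -0.71 to 0.08, edgeR adjusted p = 0.23), and LEP was not called. At 10 DAP the gene was below the count filter in “1_14” versus “1_6”, with a ratio of 1.80 (95% exact interval 0.385 to 11.1) from 6 and 3 counts.

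ERF039 was likewise low at 10 DAP and higher at 30 DAP in both lines. In “B-14” it had 9, 4 and 4 counts at 10 DAP, 79, 134 and 69 at 30 DAP, and 17, 18 and 20 at 45 DAP. In “B-6” it had 17, 3 and 4 counts at 10 DAP, 55, 49 and 71 at 30 DAP, and 50, 61 and 44 at 45 DAP. At 45 DAP the lines did not overlap and, unlike for LEP, “4_14” was the lower group. The levels were 0.260 ± 0.131, 4.10 ± 1.37 and 0.802 ± 0.103 CPM in “1_14”, “3_14” and “4_14”, and 0.397 ± 0.368, 2.72 ± 0.432 and 2.32 ± 0.414 CPM in “1_6”, “3_6” and “4_6” (SD, n = 3 each). In the order of the means, “3_14”, “3_6” and “4_6” each overlapped with the next, and so did “4_14”, “1_6” and “1_14”, while “4_6” and “4_14” did not overlap.

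In “B-6”, ERF039 rose by 30 DAP and did not pass the threshold between 30 and 45 DAP. The log2 fold change was 2.73 (standard error 0.52, edgeR adjusted p = 0.0016) in “3_6” versus “1_6”, or 6.62-fold. It was 2.47 (standard error 0.55) in “4_6” versus “1_6”, or 5.55-fold. As the study lists ERF039 as lower in “4_14” than in the same “4_6” libraries, this value is a description and its p-value is not given. ERF039 passed the count filter in both comparisons through the later group. The p-value in “3_6” versus “1_6” is to be read with that limit. Replicate 1 of “1_6” held 17 of the 24 counts of its group. Without it, the log2 fold changes were 3.83 and 3.59, and ERF039 was still called. In “4_6” versus “3_6” the log2 fold change was -0.23 (standard error 0.24, 95% interval -0.78 to 0.33, edgeR adjusted p = 0.43). The sequence of calls of ERF039 in “B-6” was shared by 1329 of the 15092 genes, or 8.81%.

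In “B-14”, ERF039 was 15.6-fold higher in “3_14” than in “1_14” (log2 fold change 3.97, standard error 0.44). In “4_14” versus “1_14” the log2 fold change was 1.60 (standard error 0.43). In “4_14” versus “3_14” it was -2.36 (standard error 0.31), a level 5.15-fold lower in “4_14”. At 45 DAP ERF039 was 2.87-fold lower in “4_14” than in “4_6” (log2 fold change -1.52, standard error 0.27). The change from 30 to 45 DAP in “B-14” minus that in “B-6” was -2.11 on the log2 scale (standard error 0.56), of the opposite sign to that of LEP, and it was not tested for the same reason. At 30 DAP, “3_14” versus “3_6” gave 0.61 (standard error 0.27, 95% interval -0.04 to 1.25, edgeR adjusted p = 0.16), and ERF039 was not called. In this comparison 3.52% of genes were called higher and 3.51% lower. Replicate 2 of “3_14” had 5.67 CPM against 3.50 and 3.13 in the other replicates, and without it the value was 0.29. At 10 DAP, ERF039 was below the count filter in “1_14” versus “1_6”, with a ratio of 0.639 (95% exact interval 0.322 to 1.24) from 17 and 24 counts.

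**Figure D2:**
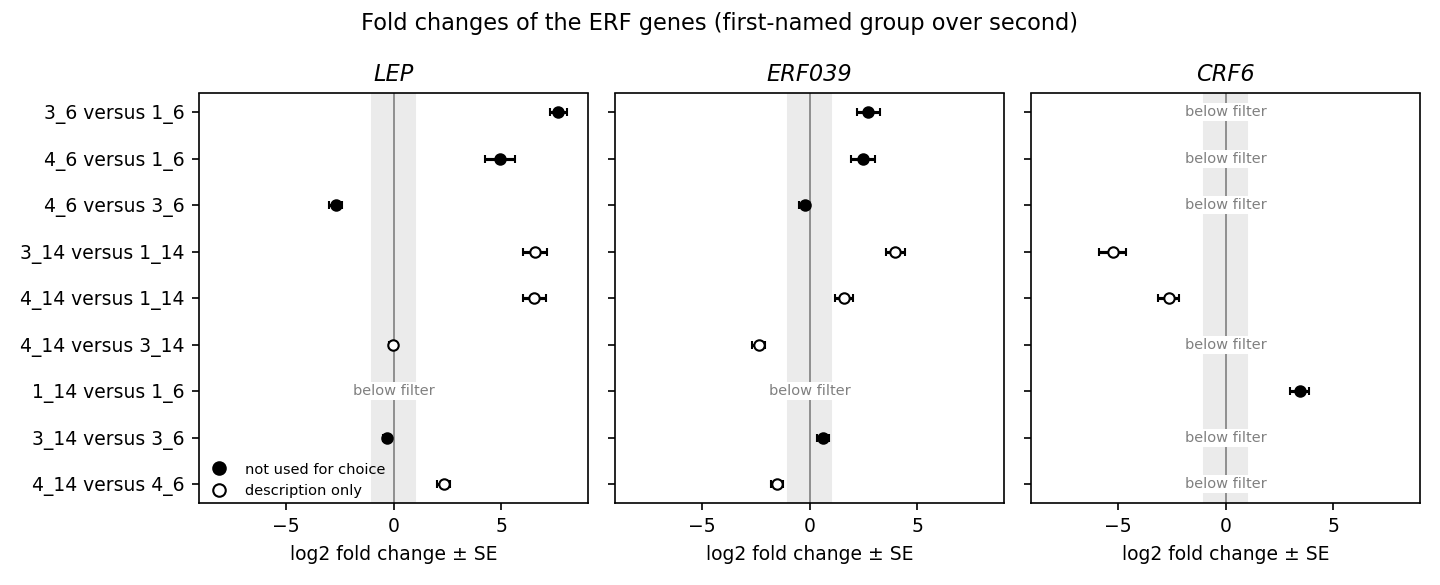
Fitted log2 fold change with its standard error for each gene (horizontal axis) in each comparison (rows, first-named group over second). Filled points are the 5 comparisons not used for the choice of the genes, open points the others, the grey band marks changes under 2-fold, and “below filter” marks genes with too few counts for the fit. Of the filled points, CRF6 in “1_14” versus “1_6” and ERF039 in “4_6” versus “1_6” are descriptions, because the choice of the genes favoured them. LEP and ERF039 have opposite signs in “4_14” versus “4_6” (2.33 and -1.52). Fitted values against groups with few counts, such as LEP in “1_6”, depend on the fit's prior count.

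CRF6 was the least abundant in counts of these genes and had its highest level in “1_14”. It had 34, 34 and 53 counts at 10 DAP, 0, 2 and 1 at 30 DAP, and 8, 3 and 9 at 45 DAP in “B-14”. In “B-6” it had 3, 3 and 4 counts at 10 DAP, 0, 1 and 2 at 30 DAP, and no count in any library at 45 DAP. Every “1_14” library was therefore above every library of the remaining groups. The levels were 1.86 ± 0.515, 0.0433 ± 0.0423 and 0.295 ± 0.151 CPM in “1_14”, “3_14” and “4_14”, and 0.171 ± 0.0363 and 0.0458 ± 0.0449 CPM in “1_6” and “3_6” (SD, n = 3 each). A count of 3 in a library, taken as the floor, corresponded to 0.125 to 0.159 CPM, and all libraries of “3_14”, “3_6” and “4_6” were at or below it. In the order of the means, “1_14” was apart from “4_14”, “4_14” overlapped with “1_6”, and “1_6” was apart from “3_6”.

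Between the lines at 10 DAP, CRF6 was 10.8-fold higher in “1_14” than in “1_6” (log2 scale 3.44, standard error 0.43, 95% interval 2.45 to 4.42). CRF6 had been selected for being lower at later stages than in the same “1_14” libraries, through which alone it passed the count filter here, so this value is a description and its p-value is not given. In “1_14” versus “1_6”, 12.8% of all genes were called higher and 14.4% lower. The log2 fold change lay between 3.19 and 3.61 when each library was left out in turn. At 30 DAP both lines were at the floor and no fold is given. At 45 DAP CRF6 was at least 2.19-fold higher in “4_14” than in “4_6”, against a floor of 3 counts in each “4_6” library. This bound is set by the floor and is no confidence limit.

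Along the stages of “B-14”, CRF6 had 3 counts over the “3_14” libraries against 121 over the “1_14” libraries, a ratio of 0.0237 (95% exact interval 0.00482 to 0.0709). In “4_14” versus “1_14” the log2 fold change was -2.64 (standard error 0.47), a level 6.24-fold lower in “4_14”. Between “4_14” and “3_14”, with 20 and 3 counts, the ratio was 6.61 (95% exact interval 1.96 to 34.7). In “B-6”, CRF6 was below the count filter in every stage comparison. With 3 counts in “3_6” and 10 in “1_6”, the ratio was 0.275 (95% exact interval 0.0486 to 1.07), and a change was not detectable at this depth. In “4_6”, with no count, CRF6 was at least 1.27-fold lower than in “1_6” if each “4_6” library is set at the floor of 3 counts. This bound is no confidence limit, and the “1_6” libraries themselves held only 3, 3 and 4 counts.

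The spread between replicates was compared with the spread that counting alone would give. For LEP in “4_14” the coefficient of variation was 8.62% against 6.98% from counting, and in “3_14” it was 20.1% against 6.93%. In “4_6”, where replicate 2 had 23 counts and replicates 1 and 3 had 53 and 43, it was 40.5% against 15.9%. For ERF039 it was 12.8% in “4_14”, where counting gave 23.4%, and 33.4% in “3_14”, where counting gave 10.3%. CRF6 in “1_14” had 27.7% against 15.7%. Relative to counting, the excess was thus largest for ERF039 in “3_14”, where replicate 2 had 134 counts and the other replicates 79 and 69.

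As a description, the counts of LEP and ERF039 were set against each other within each library, which needs no scaling between libraries. At 45 DAP this restates the opposite line differences given above, which belong to a comparison used for the choice, and a separation of the lines there is no further result. The number of LEP counts per ERF039 count was 11.8, 11.2 and 10.7 in “4_14” and 1.06, 0.377 and 0.977 in “4_6”. At 30 DAP it was 2.15, 1.55 and 3.57 in “3_14” and 4.02, 4.65 and 4.06 in “3_6”. The line with the larger ratio was “B-6” at 30 DAP and “B-14” at 45 DAP. At 10 DAP the ratio was 0.444, 0 and 0.5 in “1_14” and 0, 0.333 and 0.5 in “1_6”. The lengths of the transcripts were not used here, so the ratio does not compare the abundance of the 2 transcripts, only how it differed between libraries.

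**Figure D3:**
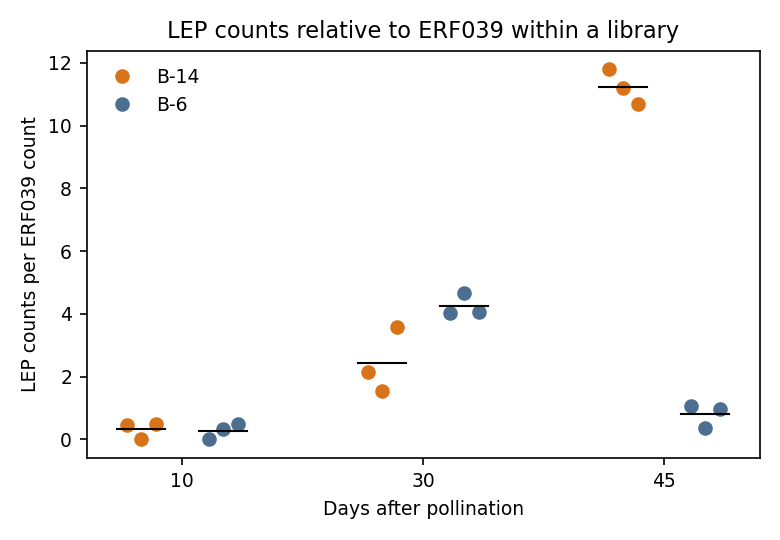
Number of LEP counts per ERF039 count in each library (vertical axis) against days after pollination, “B-14” in orange left of “B-6” in blue, with a line at the mean of 3 libraries. At 45 DAP the “B-14” libraries lie between 10.7 and 11.8 and the “B-6” libraries between 0.377 and 1.06.

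The list of transcription factors from which these genes come holds 3 more genes described as ethylene-responsive, namely ERF106 (MELO3C005466.2), ERF061 (MELO3C005747.2) and ERF1B (MELO3C006430.2). They had been listed on the same comparisons as the others. In Arabidopsis, ERF1B (ERF1) is an activator that acts downstream of ethylene signalling. All 3 were highest at 10 DAP in “B-14”, and in “B-6” this held for ERF106 and ERF061. ERF106 had 187 ± 101, 5.69 ± 1.18 and 11.4 ± 2.39 CPM in “1_14”, “3_14” and “4_14”, and 261 ± 68.6, 7.37 ± 0.123 and 4.49 ± 0.845 CPM in “1_6”, “3_6” and “4_6” (SD, n = 3 each). ERF061 had 35.8 ± 8.83, 1.24 ± 0.585 and 0.929 ± 0.623 CPM in “1_14”, “3_14” and “4_14”, and 352 ± 70.5, 0.686 ± 0.0747 and 0.219 ± 0.196 CPM in “1_6”, “3_6” and “4_6” (SD, n = 3 each). Between 10 and 30 DAP in “B-6” these 2 genes moved in the opposite direction to LEP and ERF039.

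In “3_6” versus “1_6”, ERF106 fell by 5.14 and ERF061 fell by 8.99 on the log2 scale (edgeR adjusted p = 5.9e-07 and 1.4e-07), while ERF1B had 0.24 (edgeR adjusted p = 0.40). In “4_6” versus “1_6” all 3 were called lower, as were 28.4% of all genes tested. Their log2 fold changes were -5.89, -10.61 and -5.36 for ERF106, ERF061 and ERF1B. Between 30 and 45 DAP, where 15.4% of all genes were called lower, ERF1B was called lower in “4_6” (-5.56), as LEP was. ERF106 had -0.72 and was not called. ERF061 had -1.60 and was called, though not with an adjusted p-value. It was called in only 1 of the 6 fits that left out a library, that without replicate 3 of “4_6” (-2.53). The study lists all 3 genes as higher in “4_14” than in the same “4_6” libraries, so its choice favoured low values in “4_6”. The values of these 3 genes in both comparisons with “4_6” are therefore descriptions, and their p-values are not given. At 10 DAP, ERF061 was lower in “1_14” than in “1_6” (-3.26, edgeR adjusted p = 4.3e-05), the opposite direction to CRF6. ERF1B was called higher there (1.10). As the study lists ERF1B as lower in “4_14” than in the same “1_14” libraries, this value is a description and its p-value is not given. ERF1B had 20.6, 51.6 and 23.5 CPM in “1_14” and 10.2, 20.1 and 15.7 CPM in “1_6”, and it was not called without replicate 2 of “1_14” (0.57) or without replicate 1 of “1_6” (0.87). None of the 3 was called in “3_14” versus “3_6”, where only 3.52% of all genes were called higher and 3.51% lower. ERF1B in “3_14” had 1.55, 2.07 and 18.2 CPM, so that replicate 3 stood apart, and without it ERF1B was called lower (-3.30, edgeR adjusted p = 0.00025, against -1.30 with all libraries). ERF061 had 0.86 and was called without replicate 2 of “3_14” (1.09). In replicate 3 of “3_14”, LEP had 11.2 CPM against 7.53 and 8.80 in the other replicates. Without that library LEP had a log2 fold change of -0.48 in “3_14” versus “3_6” and ERF039 of 0.77, neither of them called.

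**Figure D4:**
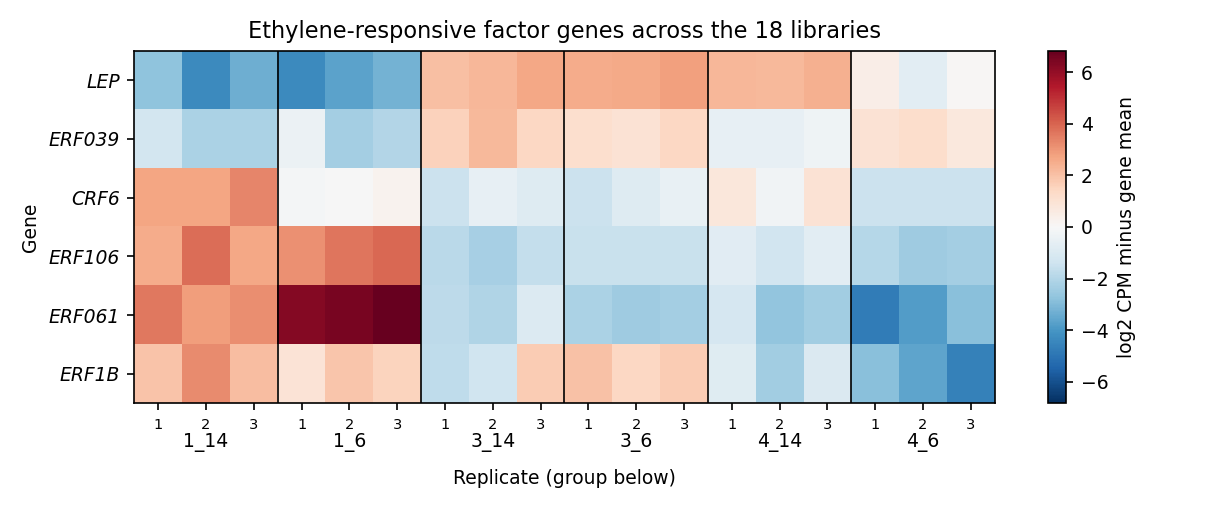
log2 CPM of each ethylene-responsive factor gene (rows) minus its own mean over the 18 libraries (columns, with replicate numbers and groups below), red above and blue below the mean. Colours compare libraries within a gene and not levels between genes. LEP and ERF039 are below their means in every library of 10 DAP, in which ERF106, ERF061 and ERF1B are above theirs.

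The same list holds 34 transcription factors of other families. In “3_6” versus “1_6”, where 27 could be tested, 6 were called higher and 12 lower, and their median log2 fold change was -0.44 against 0.02 over all genes tested, of which 17.6% were called higher and 25.1% lower. In “4_6” versus “1_6”, 6 were called higher and 17 lower of 27 (median -3.17, with 19.7% and 28.4% over all genes). In “4_6” versus “3_6”, 5 were called higher and 15 lower of 26 (median -1.51, with 12.4% and 15.4% over all genes). Between the lines, 9 were called higher and 8 lower of 30 in “1_14” versus “1_6” (12.8% and 14.4% over all genes), and 5 higher and 3 lower of 26 in “3_14” versus “3_6” (3.52% and 3.51% over all genes). Without replicate 3 of “3_14”, 15 instead of 8 were called in that last comparison. As the list was drawn up on these samples, its counts are a description.

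To find the genes whose pattern was most like that of each member, Pearson's r of log2 CPM was calculated over the 18 libraries, which form 6 groups and are not 18 independent points, for the 17436 other genes that passed the count filter. Of these, 153 have a description in the paper or its supplement, and the 3 with the highest r for each member are given, with Spearman's rho over the same libraries. The described genes had mostly been picked for their changes in these samples.

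For LEP they were a cell division cycle protein 48 homolog (MELO3C026279.2, r = 0.95, rho = 0.85), the chlorophyll b reductase NYC1 (MELO3C025347.2, r = 0.95, rho = 0.71), which starts the breakdown of chlorophyll b, and a metallothionein-like protein of type 3 (MELO3C016513.2, r = 0.93, rho = 0.67). Among all the genes compared, 632 had r above 0.9 with LEP, and these 3 ranked 85, 110 and 250. None of the 3 had the drop of LEP at 45 DAP in “B-6” to the same extent. The levels that follow are for “3_6”, “4_6”, “3_14” and “4_14” in this order (SD, n = 3 each). The cell division cycle protein 48 homolog had 438 ± 21.3, 259 ± 79.4, 437 ± 11.9 and 233 ± 16.2 CPM, and thus fell in both lines. NYC1 had 333 ± 31.5, 313 ± 136, 483 ± 68.9 and 566 ± 24.4 CPM. The metallothionein-like gene had 473 ± 54, 551 ± 108, 935 ± 192 and 1050 ± 300 CPM.

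For ERF039 the carotene hydroxylase CYP97C1 (MELO3C024495.2, r = 0.91, rho = 0.87), which acts in lutein synthesis, was followed by the auxin carrier-like protein PIN-LIKES 6 (MELO3C025264.2, r = 0.89, rho = 0.85) and the protochlorophyllide reductase PORA (MELO3C016714.2, r = 0.88, rho = 0.83), an enzyme of chlorophyll synthesis. Their ranks were 45, 119 and 159, and 81 genes had r above 0.9. CYP97C1 had 21.5 ± 2.72, 96.4 ± 3.10 and 54.7 ± 9.82 CPM in “1_14”, “3_14” and “4_14”, and 30.8 ± 4.33, 87.7 ± 9.6 and 106 ± 41.7 CPM in “1_6”, “3_6” and “4_6” (SD, n = 3 each). Like ERF039, it was thus lower in “4_14” than in “4_6” by the means.

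For CRF6 the closest was 1 of the genes described as WRKY75 (MELO3C017743.2, r = 0.93, rho = 0.84), which ranked 7 among all genes by r, followed by MYB63 (MELO3C034877.2, r = 0.87, rho = 0.80) and a germin-like protein 5-1 (MELO3C004143.2, r = 0.85, rho = 0.85). In all, 39 genes had r above 0.9. This WRKY75 gene had 9.13 ± 3.44, 0 and 1.36 ± 0.674 CPM in “1_14”, “3_14” and “4_14”, with no count in any “3_14” library, and 0.727 ± 0.348, 0.0159 ± 0.0275 and 0.121 ± 0.0568 CPM in “1_6”, “3_6” and “4_6” (SD, n = 3 each). Many of the values behind this r are at or below the floor, and with a prior count of 0.5 in place of 2 the r was 0.85 and the rank 62. Among the members themselves, r was 0.77 between LEP and ERF039, -0.55 between LEP and CRF6 and -0.76 between ERF039 and CRF6.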

How the data were processed

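The authors trimmed the reads with Trimmomatic and mapped the cleaned reads to a melon genome by HISAT2. The deposited values are whole-number counts per gene and library, with no normalization. The counting program, the program versions and the genome build are not given in the sources used here. Of the 22394 identifiers, 0 were found among the 28628 RefSeq entries used here, so names are the paper's and no positions or sequences are given. Members and lists were chosen with earlier results of these data known.

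Each pair of groups was fitted on its 6 libraries in R 4.3.3 with edgeR 4.0.16, using TMM factors, filterByExpr and the quasi-likelihood F test, with Benjamini-Hochberg adjustment over all genes tested. log2 CPM used a prior count of 2. Intervals for ratios of counts are exact binomial intervals. The genes named are the members, the other ethylene-responsive genes of the study's list, and for each member the 3 described genes with the highest r. The labels give separate replicates, and the methods give separate plants. Replicate numbers were not treated as pairs: correlations between deviations of same-numbered libraries lay between -0.25 and 0.27. Both test methods were checked on simulated counts. Alternatives were DESeq2 1.42.0, RLE factors, library size alone, other count filters, 1 fit of all libraries, a replicate block, an adjusted p-value and leaving out each library. The authors' pigment and RT-qPCR values were not analysed here.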

Additional observations from a re-analysis of the deposited data

How the results depend on the processing

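The 9 values of LEP, ERF039 and CRF6 fitted in the 5 comparisons not used for the choice kept their direction and their side of the threshold under every alternative that could be fitted. Of these, CRF6 in “1_14” versus “1_6” and ERF039 in “4_6” versus “1_6” remain descriptions. Their stability is no support, because the choice of the genes favoured both values. The number of genes called lay between 5066 and 8114 in “3_6” versus “1_6” (7041 in the fit reported) and between 743 and 1617 in “3_14” versus “3_6” (1090). Under the stricter filter of 10 counts in each library, LEP and ERF039 could not be fitted against “1_6”, nor CRF6 in “1_14” versus “1_6”. Over the alternatives, the log2 fold change of LEP lay between 7.06 and 8.52 in “3_6” versus “1_6”, between 4.37 and 5.82 in “4_6” versus “1_6” and between -2.97 and -2.40 in “4_6” versus “3_6”. That of ERF039 lay between 2.35 and 3.83 in “3_6” versus “1_6”, with edgeR or DESeq2 adjusted p-values up to 0.0076. In “4_6” versus “1_6” it lay between 2.09 and 3.59. With libraries scaled only by their size, the middle log2 fold change over all genes was 0.18 for “3_6” and 0.19 for “4_6”. Each was set against “1_6”, where TMM factors gave 0.02, and no call of LEP or ERF039 changed. With the replicate number as a block, CRF6 had 3.42 in “1_14” versus “1_6” and LEP 7.65 in “3_6” versus “1_6”. No call of LEP or ERF039 changed. Same-numbered libraries correlated best with each other for all 3 numbers in 1 of 9 pairs of groups. Between the lines at 30 DAP, LEP lay between -0.48 and -0.20 and ERF039 between 0.29 and 0.77 over the alternatives, with adjusted p-values of 0.044 to 0.57 and 0.072 to 0.42, and the fold change threshold was not reached. The highest number of genes called there, 1617, was that without replicate 3 of “3_14”. Of the other ethylene-responsive genes, whose alternatives were added after seeing the data, ERF061 in “4_6” versus “3_6” and ERF1B in “1_14” versus “1_6” lost their calls under 6 and 3 alternatives. Among values given with no test, CRF6 in “3_14” versus “1_14” had -6.03 without replicate 2 of “3_14”, against -5.22. Depth limits CRF6 most, as 3 of its 6 groups held at most 3 counts in every library.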
